A study of Mus musculus with 8 samples.

Results

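Immediate early genes are switched on within minutes of a stimulus, without new protein synthesis, and 10 of them were followed here in the epididymal white fat of male mice: Fos, Fosb, Jun, Junb, Egr1, Atf3, Ier2, Dusp1, Zfp36 and Nr4a1. They were taken by symbol, after matching Ensembl identifiers without their version to an annotation. All 10 were among the 34866 genes of the deposited table, and all 10 passed the low-count filter that left 12480 genes. The 8 libraries fall into 4 controls of the genotype Aromatase flox/flox and 4 knockouts of the genotype aP2-Cre;Aromatase flox/flox, so every animal carried the floxed aromatase gene and the groups differ in the Cre transgene. The age of the animals is not given in the sources used here. The aP2 promoter comes from Fabp4, a gene for a carrier of fatty acids, and is active in adipocytes and also in some macrophages. A group with the transgene and an intact aromatase gene was not analysed here, so its effect and that of the deletion cannot be told apart. The stated question of the study was which genes lie downstream of aromatase in fat and act on phosphorus metabolism.

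The proteins made from these genes form a layered response. FOS, FOSB, JUN and JUNB pair through leucine zippers into the transcription factor AP-1, and ATF3 is a related, stress-induced zipper protein. EGR1 is a zinc-finger factor, NR4A1 an orphan nuclear receptor and IER2 a growth-factor-induced nuclear protein. DUSP1 removes phosphate from MAP kinases and ZFP36 binds AU-rich messenger RNAs and speeds their decay, so both act as brakes on the signal. Serum response factor with its ELK partners, and CREB, are the classical activators of the group. In fat the genes respond to hormones, catecholamines and inflammatory signals, and also to the handling of tissue.

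The sequences of the 10 genes played no part in their choice. Promoter windows from 250 bases before to 50 after the annotated start (RefSeq, GRCm38.p6) were found for 8 of the 10. Windows are shown for Atf3, Jun and Dusp1, which had the smallest p-values of the 10 between the genotypes, and for Fos, the partner of Jun in AP-1. They are written 5′ to 3′ on the gene's strand, with capitals on the matches to CGTCA, TGACNTCA and TATAAA. Each motif was searched on both strands. CGTCA is the core of the cyclic AMP element bound by CREB and ATF proteins, and TATAAA is the word of the TATA box. TGACNTCA is the full element TGACGTCA with 1 base left free, and it holds CGTCA only where that base is G. Fos lies at chr12:85473640-85473939 (plus strand), Jun at chr4:95052173-95052472, Dusp1 at chr17:26508423-26508722 and Atf3 at chr1:191183284-191183583 (all minus strand).
Fos: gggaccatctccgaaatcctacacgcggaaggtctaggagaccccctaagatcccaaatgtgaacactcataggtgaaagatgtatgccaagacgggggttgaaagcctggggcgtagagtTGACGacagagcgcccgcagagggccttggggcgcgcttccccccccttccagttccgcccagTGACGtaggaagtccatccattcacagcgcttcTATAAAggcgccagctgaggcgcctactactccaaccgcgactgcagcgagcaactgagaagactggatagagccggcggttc
Jun: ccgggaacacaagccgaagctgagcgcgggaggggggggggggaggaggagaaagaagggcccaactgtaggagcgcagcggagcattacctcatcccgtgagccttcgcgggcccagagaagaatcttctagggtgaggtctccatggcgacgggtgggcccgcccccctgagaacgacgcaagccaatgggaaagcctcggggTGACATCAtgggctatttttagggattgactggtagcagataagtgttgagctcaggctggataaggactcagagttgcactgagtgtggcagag
Dusp1: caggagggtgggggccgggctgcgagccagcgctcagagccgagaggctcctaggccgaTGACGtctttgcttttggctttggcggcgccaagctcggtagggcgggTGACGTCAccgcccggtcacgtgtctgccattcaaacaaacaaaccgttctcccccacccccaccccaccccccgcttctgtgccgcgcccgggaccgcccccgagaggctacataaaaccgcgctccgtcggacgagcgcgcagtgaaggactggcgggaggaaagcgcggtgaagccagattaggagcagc
Atf3: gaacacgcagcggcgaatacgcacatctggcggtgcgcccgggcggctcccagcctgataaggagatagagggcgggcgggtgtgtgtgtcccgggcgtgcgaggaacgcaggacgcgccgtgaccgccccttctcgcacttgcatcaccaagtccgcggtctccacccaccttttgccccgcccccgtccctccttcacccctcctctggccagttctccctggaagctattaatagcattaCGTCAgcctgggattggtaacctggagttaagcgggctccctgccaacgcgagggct

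CGTCA was found in 6 of the 8 windows, those of Fos, Fosb, Junb, Atf3, Dusp1 and Nr4a1, and in 20.8% of all 32851 windows. Fos held it 129 and 66 bases before the start, ahead of a TATAAA at 33 bases, and Atf3 at 7 bases. Dusp1 held a complete TGACGTCA 143 bases before the start, where the overlapping CGTCA matches belong to it, and a further CGTCA match at 191 bases. Jun held TGACATCA, which lacks CGTCA, 45 bases before the start. TGACNTCA was in 2 of 8 windows, Jun and Dusp1, and in 8.83% of all windows.

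TATAAA was in 2 of 8 windows, Fos and Junb, and in 13.6% of all. In Junb the match begins at the RefSeq start itself (position 1). The GENCODE annotation places the start of Junb farther downstream, at base 84978718, so the match lies upstream of that start. The EGR element GCGNGGGCG was in 3, Fosb, Zfp36 and Nr4a1, and in 5.55% of all. A CArG box, the site of serum response factor, was in 1, Zfp36, at 58 bases before the start, and in 1.63% of all. The AP-1 element TGANTCA was in 0 of the 8 and in 7.81% of all windows. The 8 windows had a median GC content of 65%, against 52.7% over all windows. The matches are descriptions of letters, and the window leaves out elements farther upstream.

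**Figure D1:**
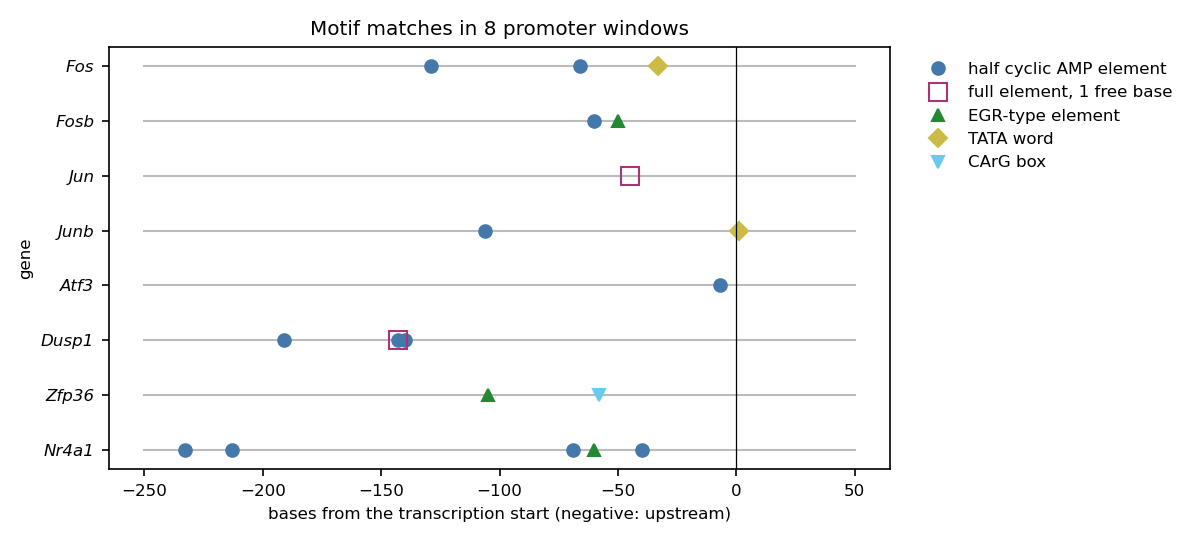
Starts of motif matches (symbols) in 8 promoter windows (rows), by distance in bases from the transcription start (horizontal axis, negative is upstream). Dusp1 and Jun hold a match to TGACNTCA, which is the full cyclic AMP element TGACGTCA only in Dusp1. Fos holds the core CGTCA at 129 and 66 bases upstream, and Zfp36 holds the single CArG box.

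Messages of immediate early genes are short-lived, and AU-rich words in a 3′ untranslated region are known to mark messages for decay. The word TATTTAT, the DNA form of the core bound by ZFP36, was counted in the longest annotated 3′ untranslated region of each gene (GENCODE release M21). It was present in 6 of the 10 genes, at 3 copies in Dusp1, 3 in Zfp36 itself, 2 in Fos and 1 each in Fosb, Jun and Atf3. It was absent from Junb, Egr1, Ier2 and Nr4a1. Among 6178 other tested genes whose regions were as long as those of the 10 (485 to 2302 bases), 26.4% held it. The first copy in the region of Fos, Jun and Dusp1 is shown with the word in capitals, at chr12:85477104-85477130 (plus strand), chr4:95049080-95049106 and chr17:26506160-26506186 (both minus strand, GRCm38).
Fos: gttttcaattTATTTATtaagatggat
Jun: tgcttgtgcaTATTTATaatagcgttc
Dusp1: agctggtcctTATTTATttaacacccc

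The 8 libraries held 1538427 to 3053565 estimated counts each. A gene at 0 could be present at up to 3 counts, counting error only. Over the raw library totals this is 0.982 to 1.95 CPM (counts scaled to a common library size). The other CPM values use adjusted library sizes, described with the processing. Adipocyte markers were abundant in every library, with Adipoq at 2110 to 3814 CPM, Plin1 at 644.3 to 1004 CPM and Fabp4 at 13930 to 22090 CPM. The aromatase gene Cyp19a1 had 1 to 5.017 estimated counts in the control libraries and 0 to 4 in the knockout libraries, too few to check the deletion. Mitochondrially encoded genes took 10.7% to 12.4% of the counts in the controls and 8.7% to 10.1% in the knockouts, and 17176 to 17937 and 17968 to 18247 genes were above 0. Both measures, and the share of the 10 most abundant genes, separated the genotypes (two-sided exact permutation p = 0.0286 each, the smallest possible, adjusted p = 0.0381 over 4 library measures).

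None of the 10 immediate early genes passed an adjusted p of 0.05 between the genotypes, although 9 of the 10 had a higher mean in the knockout libraries. Over all genes tested, 0.168% passed that threshold in edgeR's quasi-likelihood test and 49.7% had a log2 fold change above 0. DESeq2 and limma-voom also passed 0 of the 10. In edgeR 3 of the 10, Atf3, Jun and Dusp1, were higher with an unadjusted p under 0.05, against 3.52% of all genes tested, and 0 were lower. The knockout libraries lay wholly above the controls for Jun and Dusp1, 2 of the 10, against 2.48% of all genes. The median log2 fold change was 0.40 over the 10 genes and -0.00147 over all 12480. In bulk tissue, a different number of cells of a type and a different amount of RNA per cell cannot be told apart.

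**Figure D2:**
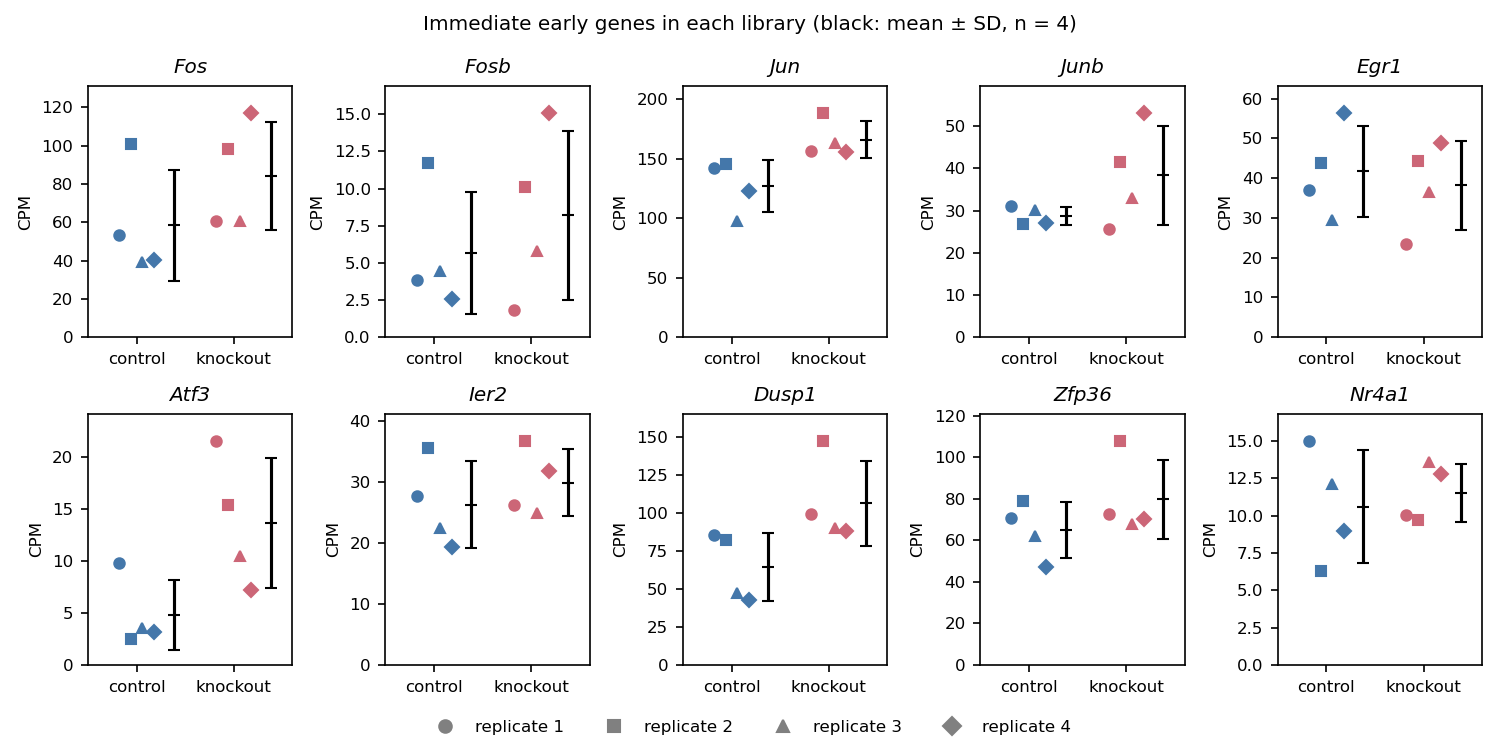
CPM (vertical axis, from 0) of each of the 10 genes in the 4 control (blue) and 4 knockout (red) libraries, with a marker shape per replicate number and the mean ± SD in black (n = 4). Jun and Dusp1 have all 4 knockout libraries above all 4 controls. Fos, Fosb, Egr1 and Atf3 spread widely within both genotypes.

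The FOS-family genes varied more within each genotype than between them. Fos (chromosome 12, 85473890 to 85477273) was at 53.1, 100.8, 39.5 and 40.4 CPM in the 4 controls, listed by replicate number, and at 60.9, 98.4, 60.5 and 117.1 CPM in the 4 knockouts. Control replicate 2 stood among the highest libraries of either genotype, and the groups overlapped. The means were 58.5 ± 28.9 and 84.2 ± 28.2 CPM (SD, n = 4), which gave a log2 fold change of 0.52 (standard error, SE, 0.36, edgeR adjusted p = 0.909). Without control replicate 2 the log2 value was 0.92 (edgeR adjusted p = 0.569), and without knockout replicate 4 it was 0.31.

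Fosb (chromosome 7, 19302696 to 19310051) was high in the same 3 libraries as Fos, at a far lower count. Its CPM was 3.84, 11.7, 4.49 and 2.56 in the controls and 1.83, 10.1, 5.82 and 15.1 in the knockouts, resting on 4 to 46 estimated counts per library. The highest and lowest values of the 8 were both in knockout libraries, replicates 4 and 1, which differed 8.24-fold. The log2 fold change was 0.53 (SE 0.58, edgeR adjusted p = 0.941). It was 0.051 without knockout replicate 4 and 1.16 without control replicate 2.

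Jun was the most even of the 10 within the knockout libraries. Jun (chromosome 4, 95049034 to 95052222) was at 142.2, 145.2, 97.8 and 122.4 CPM in the controls and at 156.6, 188.4, 162.9 and 155.8 CPM in the knockouts. All 4 knockout libraries exceeded the highest control, and the knockouts spanned 1.21-fold. The means were 126.9 ± 21.9 and 165.9 ± 15.3 CPM (SD, n = 4), which gave a log2 fold change of 0.38 (SE 0.13). Its promoter is the one with TGACATCA. The unadjusted p was 0.0123 and the adjusted p 0.592 in edgeR's test, so the difference did not pass over all genes. The annotation places a transcript named Junos on the opposite strand within Jun, and whether the authors counted by strand is not given in the sources used here.

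Junb (chromosome 8, 84974484 to 84978718) was tight in the controls and wide in the knockouts. It was at 31.1, 26.8, 30.1 and 26.9 CPM in the controls, a 1.16-fold span, and at 25.6, 41.6, 33.0 and 53.1 CPM in the knockouts. Knockout replicate 1 was the lowest library of all 8 and the other 3 knockouts were above every control. The log2 fold change was 0.42 (SE 0.20, edgeR adjusted p = 0.804). It was 0.22 without knockout replicate 4 and 0.57 without knockout replicate 1. Junb overlaps Prdx2 on the opposite strand, at the 3′ ends of both genes, the ends read by the method described with the processing. Prdx2 was at 101.3 to 127.6 CPM over the 8 libraries. Whether the Junb count holds reads of Prdx2 was not tested.

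Atf3 had the largest fold change of the 10. Atf3 (chromosome 1, 191170296 to 191218039) was at 9.78, 2.51, 3.59 and 3.21 CPM in the controls and at 21.5, 15.3, 10.5 and 7.22 CPM in the knockouts. These values rest on 5 to 28 and 22 to 47 estimated counts. Control replicate 1 lay above knockout replicate 4, and otherwise the groups were separate. The means were 4.77 ± 3.37 and 13.6 ± 6.23 CPM (SD, n = 4), which gave a log2 fold change of 1.43 (SE 0.46). In edgeR's test its unadjusted p was 0.00753, which ranked 187 among the 12480 genes, and its adjusted p was 0.499. Without control replicate 1 the log2 fold change was 2.11 (edgeR adjusted p = 0.167).

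Among the remaining transcription factor genes, differences were small beside their errors. Egr1 (chromosome 18, 34859823 to 34864984) was at 37.0, 43.9, 29.6 and 56.4 CPM in the controls. In the knockouts it was at 23.4, 44.4, 36.5 and 48.9 CPM, a range that overlapped the controls in part. It was the single gene of the 10 with a lower knockout mean, at a log2 fold change of -0.10 (SE 0.24, edgeR adjusted p = 0.981). The sign turned without control replicate 4 (0.061) and without knockout replicate 1 (0.070). Nr4a1 (chromosome 15, 101254269 to 101274795) was at 15.02, 6.28, 12.1 and 8.98 CPM in the controls and at 10.1, 9.68, 13.6 and 12.8 CPM in the knockouts. Its highest and lowest libraries were both controls. The log2 fold change was 0.11 (SE 0.31, edgeR adjusted p = 0.982) and became -0.079 without control replicate 2. Ier2 (chromosome 8, 84661331 to 84662852) was at 27.6, 35.6, 22.4 and 19.2 CPM in the controls and at 26.1, 36.7, 24.8 and 31.8 CPM in the knockouts. Its groups overlapped, and its log2 fold change was 0.17 (SE 0.21, edgeR adjusted p = 0.943). It was 0.063 without knockout replicate 2 and 0.36 without control replicate 2.

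Of the feedback genes, Dusp1 stood apart between the genotypes and Zfp36 did not. Dusp1 (chromosome 17, 26505590 to 26562128) was at 85.3, 82.4, 47.1 and 43.0 CPM in the controls and at 99.4, 147.7, 90.4 and 87.9 CPM in the knockouts. The controls formed a higher pair and a lower pair, and each knockout library was above all of them, the nearest by 87.9 to 85.3 CPM. The means were 64.4 ± 22.5 and 106.3 ± 28.0 CPM (SD, n = 4), which gave a log2 fold change of 0.70 (SE 0.26). Its promoter is the one with the complete TGACGTCA. The unadjusted p was 0.0215 and the adjusted p 0.689 in edgeR's test. Without knockout replicate 2 the log2 fold change was 0.50 (unadjusted p = 0.0521, edgeR adjusted p = 0.932). In the annotation Dusp1 overlaps AC122252.1 and AC122252.4 on its own strand, and Gm8225 and Ergic1 on the opposite strand. With transcripts read on their own strands, 0 other annotated genes shared a word of 31 bases with Dusp1. Words of the opposite strand were not compared, so whether its count holds reads of Gm8225 or Ergic1 was not tested. Ergic1 was at 66.2 to 103.3 CPM over the 8 libraries.

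Zfp36 (chromosome 7, 28376784 to 28380253) was at 70.9, 79.1, 62.3 and 47.4 CPM in the controls and at 72.8, 108.1, 67.9 and 70.5 CPM in the knockouts. Knockout replicate 2 was far above the rest, and the other 3 knockouts lay within the range of the controls. The log2 fold change was 0.29 (SE 0.18, edgeR adjusted p = 0.901). It was 0.11 without knockout replicate 2. Zfp36 shares words of 31 bases with 534 other annotated genes, and no more than 72 of its 3468 words with a single gene. The total over these genes was not computed, so its count is uncertain to that extent.

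**Figure D3:**
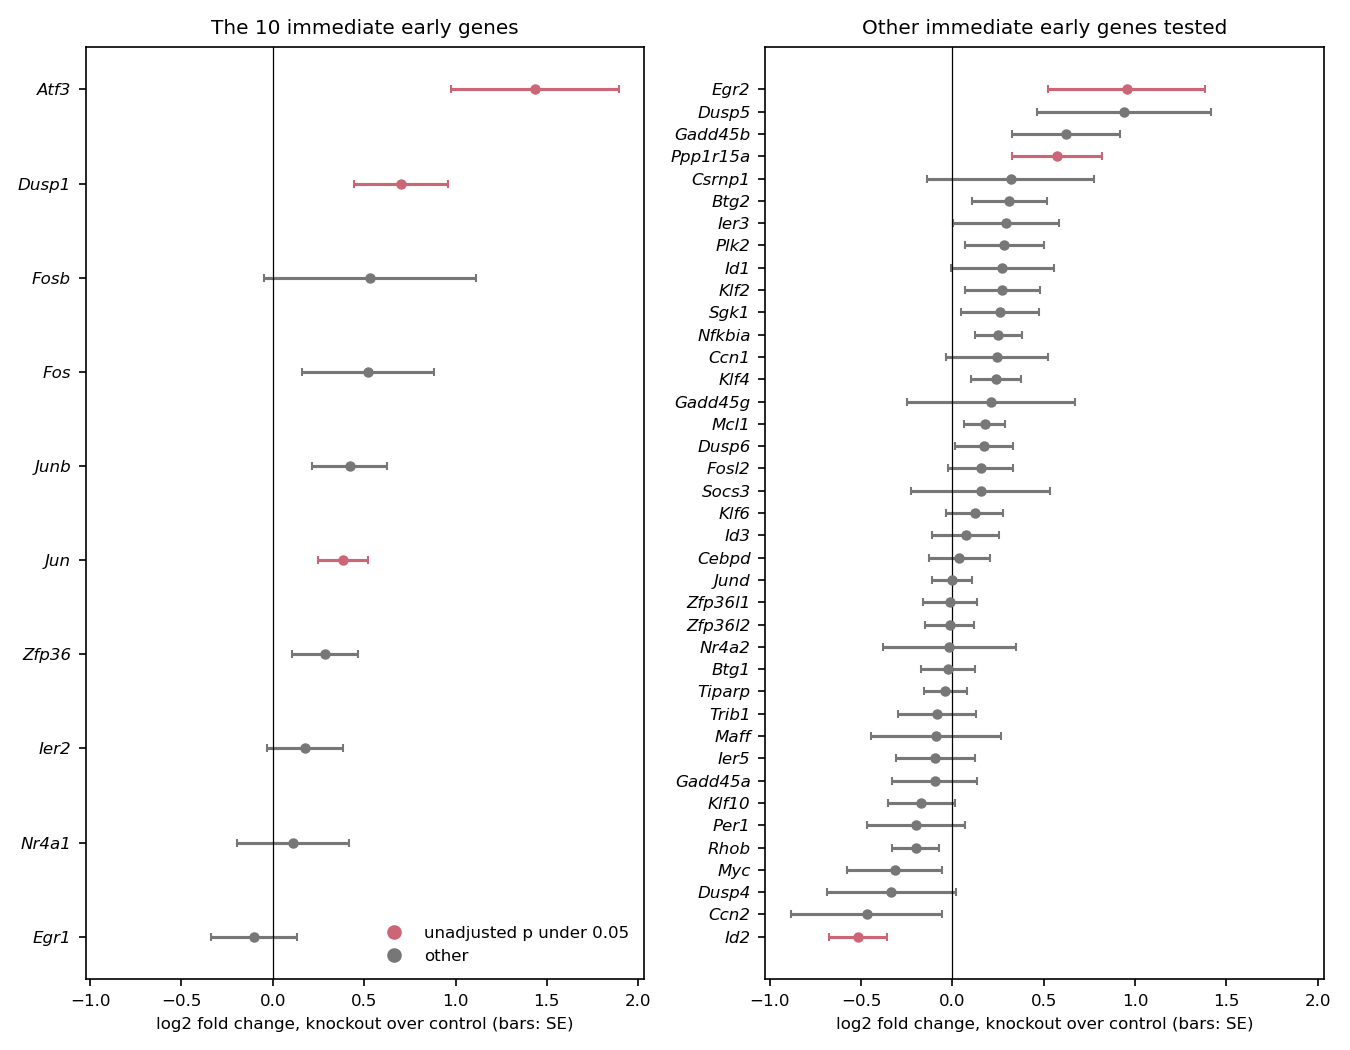
Log2 fold change of knockout over control (horizontal axis, bars are the standard error) for the 10 immediate early genes (left) and 39 other immediate early genes that were tested (right), red where the unadjusted p was under 0.05. On the left 9 of 10 points lie above 0 and on the right 22 of 39.

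The 10 genes did not all peak in the same libraries. Each gene's log2 CPM was centred on its mean over the 8 libraries and averaged over the 10 genes. The average was lowest in control replicates 4 and 3, at -0.48 and -0.40, and highest in knockout replicates 2 and 4, at 0.50 and 0.38. The other 4 libraries, control replicates 1 and 2 and knockout replicates 1 and 3, lay between -0.069 and 0.077, with both genotypes among them. Of the 10 genes, 5, 7, 1 and 1 were above their own mean in the controls, by replicate number, and 4, 9, 6 and 8 in the knockouts.

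Different genes peaked in different libraries. Knockout replicate 2 was the highest of all 8 for 4 genes, Jun, Ier2, Dusp1 and Zfp36. Knockout replicate 4 was the highest for 3, Fos, Fosb and Junb. Knockout replicate 1 was the highest for Atf3 and yet the lowest of all 8 for 3 genes, Fosb, Junb and Egr1. Control replicate 2 was the highest control for 5 genes, among them Fos and Fosb, and the lowest of all 8 for Atf3 and Nr4a1. The summed level of the 10 genes was 348.9 to 534.3 CPM in the controls and 498.2 to 700.4 CPM in the knockouts, with overlap.

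**Figure D4:**
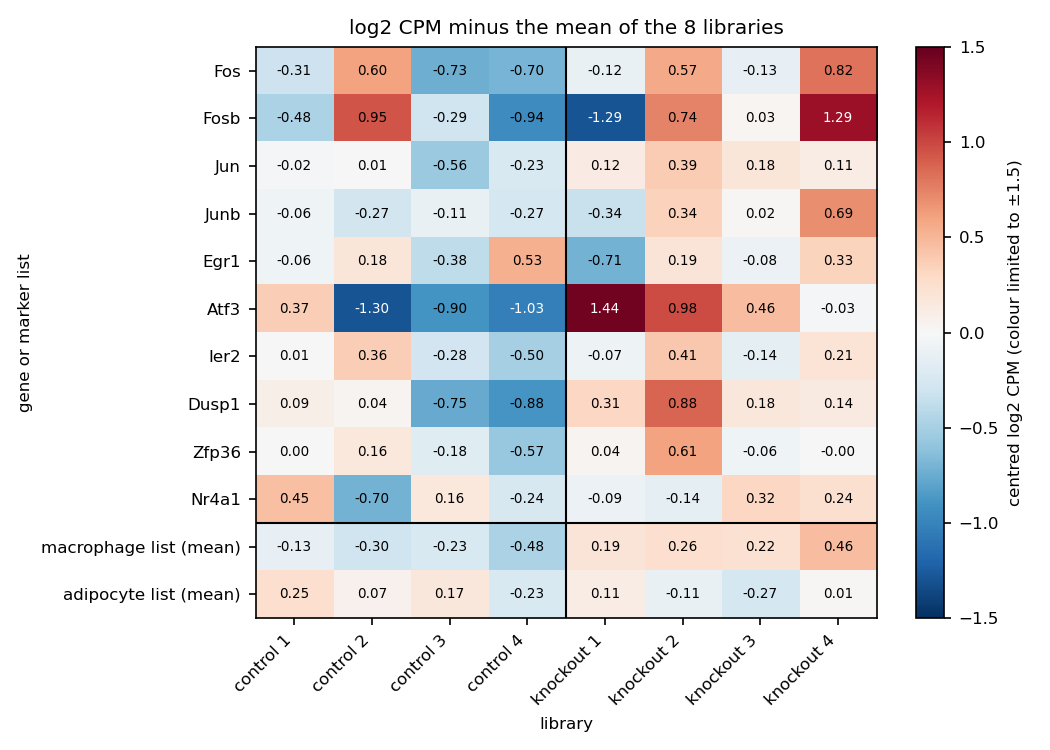
Log2 CPM minus the mean over the 8 libraries, printed in each cell, for the 10 genes and for the mean of the macrophage and adipocyte marker lists (rows), by library (columns, with a line between the genotypes). Control replicates 3 and 4 are mostly below 0 and knockout replicates 2 and 4 mostly above, while Atf3 peaks in knockout replicate 1.

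Macrophage markers were also compared between the genotypes. Of 16 such genes 15 were tested and 13 were higher in the knockout libraries. Of the 15, 4 passed the adjusted threshold in edgeR and 10 had an unadjusted p under 0.05. The lysosomal protease gene Ctss rose from 67.6 ± 3.03 to 156.1 ± 22.8 CPM (SD, n = 4, edgeR adjusted p = 0.000666) and the lysozyme gene Lyz2 from 378.7 ± 23.4 to 682.1 ± 86.7 CPM (SD, n = 4, edgeR adjusted p = 0.00776). Gpnmb and Cd68 also rose, with log2 fold changes of 1.54 and 1.13. Trem2 and Itgam, at 1.40 and 0.62, did not pass in that fit. Trem2 passed in DESeq2 and in edgeR without the low-count filter. The summed level was 1051 to 1206 CPM in the controls and 1613 to 2024 CPM in the knockouts, without overlap, and no marker of the list was at 0 in all libraries. The adipocyte list, with 13 of 13 tested, summed to 46320 to 61570 CPM in the controls and 39160 to 57470 CPM in the knockouts, with 3 higher, 10 lower and 0 passing in edgeR, and none at 0. Retn, the resistin gene, was the single adipocyte marker with an unadjusted p under 0.05, at 2392 ± 319.5 and 1528 ± 144.4 CPM (SD, n = 4, edgeR adjusted p = 0.0731). Retn fell past the threshold in DESeq2, in limma-voom and in edgeR without the low-count filter, as the 1 adipocyte marker that passed in each. Macrophages and stromal cells express immediate early genes too. The part of cell makeup in the values of the 10 genes was not tested.

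The summed levels of 9 other marker lists overlapped between the genotypes. The endothelial list (10 of 10 tested) summed to 573.8 to 1087 CPM in the controls and 819.5 to 1015 CPM in the knockouts, and the fibroblast list (10 of 10 tested) to 3662 to 4467 and 3950 to 5055 CPM. The mesothelial list summed to 117.4 to 374.4 and 134.6 to 235.8 CPM, the mural and smooth muscle list to 561.1 to 663.6 and 532.5 to 703.1 CPM, and the blood list to 2992 to 6640 and 2851 to 4846 CPM. Lymphocyte and neutrophil markers summed to at most 35.5 and 44.6 CPM in any library. Skeletal muscle markers summed to 73.02 and 77.4 CPM in knockout replicates 2 and 4, the libraries where the average of the 10 genes was highest, and to 12.18 to 29.76 CPM in the other 6 libraries. The part of muscle RNA in the values of the 10 genes was not tested. Of 8 epididymis and male tract markers, 4 (Defb20, Lcn5, Lcn8 and Crisp1) were at 0 in all libraries and the list summed to at most 9.7 CPM. Of the endothelial, fibroblast, mesothelial, mural and blood lists all genes were tested and 0 passed in edgeR, DESeq2 or limma-voom. The low-count filter left 1 of 10 lymphocyte, 2 of 6 neutrophil, 1 of 8 skeletal muscle and 0 of 8 epididymis markers, so those lists were hardly tested. At an unadjusted p under 0.05, Notch3 and Acta1 were higher, with log2 fold changes of 0.69 and 0.79, and Vwf and Tagln lower, at -0.69 and -0.57.

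Heat shock genes, which encode chaperones, are the targets of a separate rapid stress response. All 14 listed were tested; 7 were higher and 7 lower, 0 passed in edgeR and 0 had an unadjusted p under 0.05. Their median log2 fold change was -0.00801, and they summed to 3449 to 4279 CPM in the controls and 3564 to 3981 CPM in the knockouts.

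The wider immediate early group was also measured. Of 47 further genes listed, 39 were tested, and Fosl1, Egr3, Egr4, Nr4a3, Dusp2, Arc, Plk3 and Ptgs2 were removed by the low-count filter. Among the 39, 22 were higher and 17 lower, 0 passed in edgeR, and the median log2 fold change was 0.12. At an unadjusted p under 0.05, 2 were higher and 1 lower. Egr2, a zinc-finger relative of Egr1, was at 2.89 ± 1.01 CPM in the controls and 5.49 ± 1.08 CPM in the knockouts (SD, n = 4), with all 4 knockouts above all controls (log2 fold change 0.95, edgeR adjusted p = 0.756). Ppp1r15a, which restarts translation after stress, was at 12.5 ± 2.87 and 18.9 ± 3.69 CPM (SD, n = 4), with 3 of 4 knockouts above all controls (log2 fold change 0.57, edgeR adjusted p = 0.727). Id2, an inhibitor of helix-loop-helix factors, was at 67.8 ± 8.25 and 47.1 ± 10.3 CPM (SD, n = 4), with an edgeR adjusted p of 0.482 at a log2 fold change of -0.52.

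None of the closest relatives named here passed in edgeR. Jund, the third JUN gene, was at 152.5 ± 14.1 CPM in the controls and 152.5 ± 11.0 CPM in the knockouts (SD, n = 4, edgeR adjusted p = 0.999). Fosl2 had a log2 fold change of 0.15 (SE 0.18), and Nr4a2 of -0.016 with a standard error of 0.36. Zfp36l1 and Zfp36l2, the relatives of Zfp36, had log2 fold changes of -0.014 and -0.015 with standard errors of 0.15 and 0.13. The phosphatase genes Dusp4, Dusp5 and Dusp6 had values of -0.34, 0.94 and 0.17. They were singled out after their values had been seen.

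No gene that acts upstream passed the adjusted threshold. All 33 listed factors and kinases, among them Srf, the ELK genes, Creb1 and the MAP kinases, were tested; 15 were higher, 18 lower and 0 passed in edgeR, with a median log2 fold change of -0.0188. At an unadjusted p under 0.05, 1 was higher and 2 lower. Crtc2, a coactivator of CREB, was at 17.3 ± 2.56 CPM in the controls and 10.7 ± 2.50 CPM in the knockouts (SD, n = 4), with an edgeR adjusted p of 0.635 at a log2 fold change of -0.70. Mef2c, a MADS-box factor, was at 40.3 ± 4.53 and 51.7 ± 10.1 CPM (SD, n = 4), with an edgeR adjusted p of 0.758 at a log2 fold change of 0.36. Mapk9, a JUN kinase, was at 54.2 ± 12.3 and 42.8 ± 3.16 CPM (SD, n = 4), with an edgeR adjusted p of 0.775 at a log2 fold change of -0.35.

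Few of the messages targeted by ZFP36 were abundant enough to test. Of 13 genes for other zipper proteins that pair with AP-1, 11 were tested, 7 were higher, 4 lower and 0 passed in edgeR. Of 11 messenger RNAs known to be bound by ZFP36, 2 were tested and Csf2 was at 0 in all libraries. The list summed to 21.08 to 34.73 CPM in the controls and 40.73 to 46.9 CPM in the knockouts, without overlap, most of it from the 2 genes tested. The chemokine gene Ccl2 was at 11.1 ± 5.20 and 19.8 ± 4.10 CPM (SD, n = 4), with an edgeR adjusted p of 0.689 at a log2 fold change of 0.82, and Ier3 had a log2 fold change of 0.29 (SE 0.29, edgeR adjusted p = 0.938). Among the tested genes of the heat shock, wider immediate early, upstream, partner and target lists, 0 passed in DESeq2 and 0 in limma-voom.

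The genes whose levels ran closest to the average of the 10 over the 8 libraries were searched among 7438 tested genes with a mean of at least 20 CPM. Likeness was the root mean square difference of centred log2 CPM, so a smaller value is closer. The 5 closest were Lztr1 at 0.112, Coro1a and C1qb at 0.113 each, Srxn1 at 0.133 and C1galt1 at 0.139. LZTR1 is an adaptor for the degradation of RAS proteins, coronin 1A an actin regulator of leukocytes, and C1QB a complement subunit made by macrophages. SRXN1 is an antioxidant enzyme and C1GALT1 builds O-linked sugar chains. They were picked for this likeness, which is given as a description.

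The 3 genes with an unadjusted p under 0.05 all held TATTTAT, at 3 copies in Dusp1 and 1 each in Jun and Atf3, and so did Fos, Fosb and Zfp36. Most of the 10 genes are compact. Ier2 spans 1522 bases in 1 exon and Jun 3189 bases in 1 exon, Zfp36 3470 bases and Fos 3384 bases. The median span was 4698 bases, against 25050 bases over 12033 protein-coding genes tested. Atf3 and Dusp1 were the longest, at 47744 and 56539 bases from the first to the last annotated base. The promoter windows shown for both lie inside these spans, so the RefSeq start used is not the outermost GENCODE start. The windows of Zfp36 and Nr4a1 also lie inside the GENCODE spans of these genes. The RefSeq start of Junb instead lies outside its GENCODE span, upstream of it.

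Single libraries changed the size of several differences. When 1 library was left out at a time, 0 of the 10 genes passed in each of the 8 edgeR fits. In those fits 2 to 4 of the 10 had an unadjusted p under 0.05. Atf3 and Jun were among them in all 8, Jun with log2 fold changes of 0.28 to 0.46 and Atf3 of 1.14 to 2.11. Dusp1, at 0.50 to 0.87, was among them in 6 of 8, and not without control replicate 3 or knockout replicate 2. The median over the 10 genes ranged from 0.26 to 0.49.

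**Figure D5:**
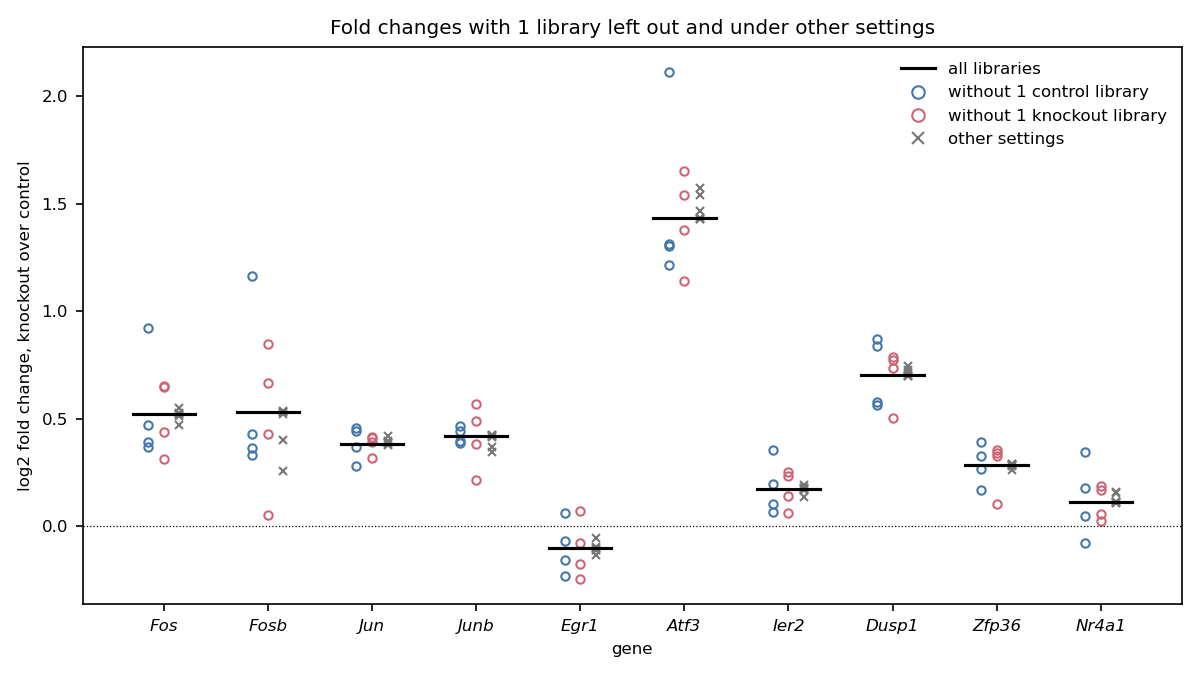
Log2 fold change of knockout over control (vertical axis) for each of the 10 genes (horizontal axis) with all libraries (black line), without 1 control library (blue circles), without 1 knockout library (red circles) and under 6 other settings (crosses). Only Egr1 and Nr4a1 cross 0, and Fosb and Atf3 move the most.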

How the data were processed

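Total RNA of 8 samples was profiled by BRB-seq, which reads the 3′ ends of polyadenylated transcripts from an oligo-dT primer, per the labels' protocols. The authors deposited 1 table of estimated counts, not normalized. Salmon and the GRCm38 build are named in the submitters' processing notes, without a version. The annotation, the use of strand and of molecular identifiers are not given in the sources used here. Of the values above 0, 59.6% were whole, and all were rounded to whole numbers here. Of 34866 identifiers, 34652 matched GENCODE release M21, which gave symbols and coordinates.

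The main test was the robust quasi-likelihood F test of edgeR 4.0.16 (R 4.3.3) between the genotypes, on all 8 libraries with TMM factors and the filterByExpr filter, with Benjamini-Hochberg adjustment over 12480 genes and a threshold of 0.05. CPM are on TMM-scaled library sizes, and centred values use log2 CPM with a prior count of 2. Alternatives used RLE and upper-quartile factors, no filter, DESeq2 1.42.0, limma 3.58.1 (voom with quality weights), the replicate number as a block and leaving out each library. Library measures were tested with scipy 1.17.1. The scripts were tested on simulated data.

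Named genes are the 10, the genes of each list with an unadjusted p under 0.05 (at most 6 a list, by smallest p), the 5 closest in pattern and Cyp19a1. One gene that this rule names is not reported here. For cell type lists only those that bear on the 10 are printed. The members and lists were chosen with earlier results of these data known. The labels do not say that samples came from separate animals, so p-values measure the spread between these samples. Replicate pairs differed by 4.48 to 9.4 in chi-square per degree of freedom over genes whose 2 counts summed to 20 or more, so none is a library deposited in duplicate.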

Additional observations from a re-analysis of the deposited data

Results flagged for a closer look

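The groups of 4 libraries were examined for a library far from its group by Dixon's criterion, the gap to the closest value as a share of the whole range. This marked 5 of 50 groups, and about 1 in 20 would be marked by chance. Among the 10 genes, control replicate 1 had an Atf3 level of 9.783 CPM, and the remaining controls 2.51 to 3.588 CPM. Zfp36 was at 108.1 CPM in knockout replicate 2, against 67.88 to 72.81 CPM in the other knockouts. The summed macrophage markers reached 2024 CPM in knockout replicate 4, against 1613 to 1673 CPM in the other knockouts. The summed upstream factors and kinases came to 1564 CPM for control replicate 4, the smallest library, and to 1739 to 1760 CPM for the rest of its group. The summed fibroblast markers came to 3662 CPM for control replicate 1 and to 4349 to 4467 CPM for the other 3. What set these libraries apart was not tested.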

How the results depend on the processing

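None of the 10 genes passed the adjusted threshold under the 14 alternatives run, and 2 to 4 had an unadjusted p under 0.05. The lowest adjusted p was 0.117, for Atf3 in edgeR without the low-count filter, and the highest for that gene was 0.908. Over all genes, 21 passed, and 59 without the low-count filter, 55 with DESeq2 and 6 in the fit with the replicate block. Fits that left out 1 library gave 4 to 43 genes, the fewest without control replicate 2 and the most when control replicate 4 was dropped. The cause was not tested. In the same fits Egr1 ranged from -0.2443 to 0.07041 and Nr4a1 from -0.07862 to 0.343 in log2 fold change, and both changed sign. With the block, 3 of the 10 had an unadjusted p under 0.05 and their median was 0.38. Same-numbered libraries deviated together at correlations of 0.25, -0.062, -0.0058 and -0.24. Among these pairs, only the libraries of replicate 1 correlated best with each other. Whether same-numbered libraries share more than a number was not tested. The library measures were not recomputed. Fosb, Atf3 and Nr4a1 rest on few counts, which limits what could be detected at this depth.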
